A study of Mus musculus with 8 samples.

Results

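The genes described here are 10 genes of vasoactive signalling: the nitric oxide synthase genes Nos1 and Nos3, the endothelin ligand genes Edn1 and Edn3 with the receptor genes Ednra and Ednrb, the angiotensin genes Ace and Agtr1a, the adrenomedullin gene Adm and the mechanosensitive channel gene Piezo1. They were chosen by symbol, and all 10 were found among the 53278 symbols of the count table and passed the filter on low counts that left 20140 genes for testing. The data are bulk RNA sequencing counts from whole forebrains of 8 male C57BL/6J mice, 10 to 20 weeks old. The 4 depleted mice ate food with PLX3397 (the columns named Plx), an inhibitor of the CSF1R kinase that microglia need for survival, for 9 days. The 4 control mice ate control food, and no allele or other agent is named for either group. The series title names microglia, CD39 and cerebral blood flow, so the comparison asks whether genes that set vessel tone differ in forebrains without microglia.

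Nitric oxide made by neurons and endothelium relaxes vascular smooth muscle through soluble guanylate cyclase and cyclic GMP. Endothelin peptides constrict vessels through the receptor on smooth muscle, while the other receptor, abundant in astrocytes and present on endothelium, clears endothelin and can release nitric oxide. Angiotensin converting enzyme produces the constrictor angiotensin II, adrenomedullin is a dilator peptide, and Piezo1 opens when flow or pressure stretches the membrane.

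None of the 10 genes passed the test over all genes in depleted against control forebrains. In edgeR's quasi-likelihood test 0 of 10 had an adjusted p under 0.05, where 1.16% of all tested genes did, and 0 passed in DESeq2 or limma-voom. Piezo1 was the 1 gene with an unadjusted p under 0.05, a level that 11.0% of all tested genes reached, and in 0 of 10 genes did the groups lie apart, against 5.77% of all genes. Of the log2 fold changes 5 were negative and 5 positive, with a median of 0.0053 beside -0.00038 over all genes. Their median size was 0.15, beside 0.11 over all genes.

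**Figure D1:**
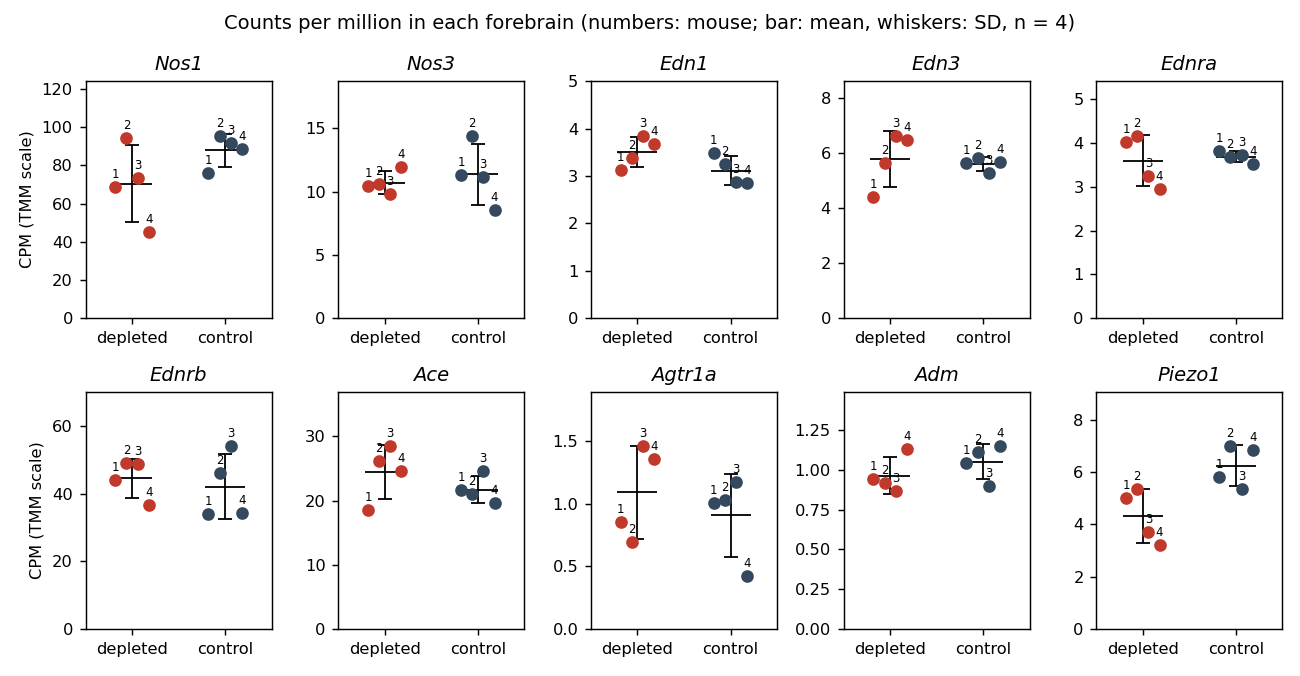
Counts scaled to library size (CPM, vertical axes from 0) of each gene in 4 depleted (left, red) and 4 control (right, blue) mice; numbers are mouse numbers, bars means and whiskers SD. The groups overlap in every panel, and in Piezo1 by 1 mouse of each group at 5.35 CPM.

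The libraries held 48455538 to 68406688 counts, so that 1 CPM (a count scaled to library size) was roughly 50 counts. Csf1r, the drug's target, averaged 1.22 ± 0.609 CPM in depleted mice and 58.6 ± 5.49 CPM in control mice (SD, n = 4 each). All 15 microglia markers fell, with a summed level of 16.5 to 24.4 CPM in depleted mice, against 291 to 353 CPM in control mice. Markers of single brain regions also varied between forebrains. The 15 striatum markers summed to 1000 to 3915 CPM in depleted mice, against 425 to 2012 CPM in control mice, and 0 of 15 passed, although all 15 had a positive fold change and 13 an unadjusted p under 0.05. Hcrt, the orexin gene of hypothalamic neurons, had 1249 and 2081 counts in depleted mice 2 and 3, against 1578 and 1628 counts in control mice 2 and 3, and between 4 and 12 counts in the other 4 mice. Below, mice with Hcrt reads are those with at least 100 Hcrt counts, and the rest are called mice without or lacking them. Depleted mouse 4, without Hcrt reads in this sense, still had 2016 counts of Oxt and 652 of Avp, other hypothalamic genes. The 11 choroid plexus markers summed to 94.5 CPM in depleted mouse 1, to 477 to 787 CPM in depleted mice 2 to 4 and to 376 to 550 CPM in control mice. In whole tissue, fewer cells of a type and less RNA per cell cannot be told apart.

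**Figure D2:**
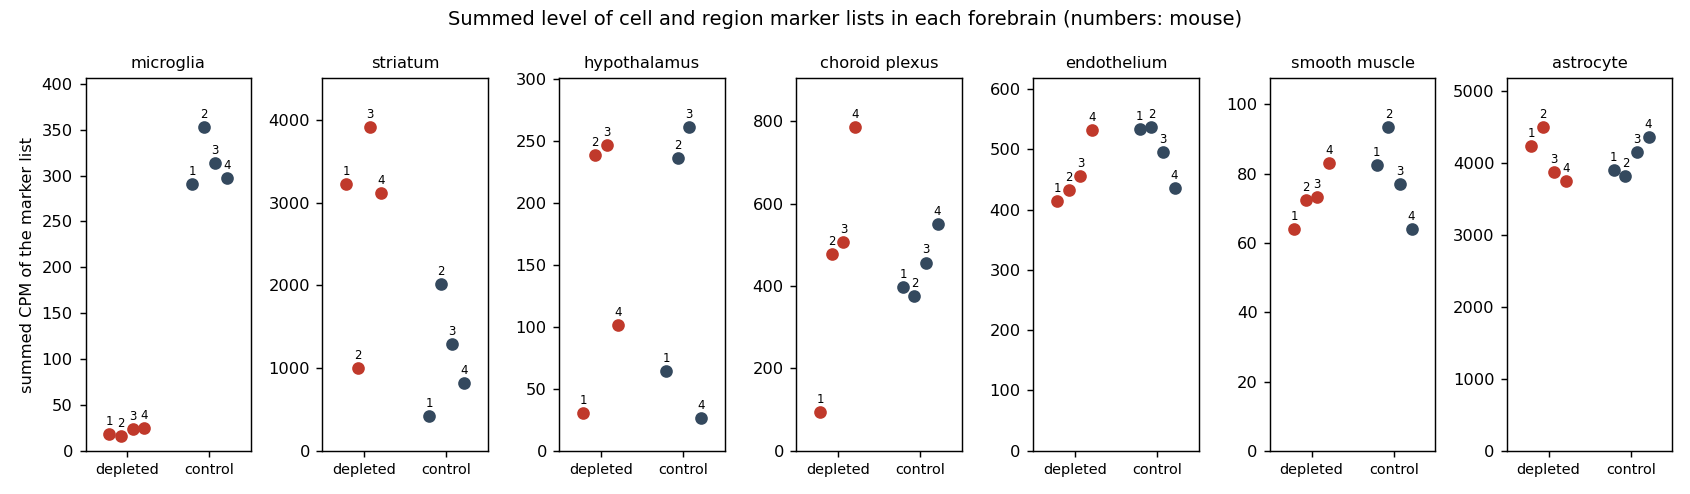
Summed CPM (vertical axes from 0) of 7 marker lists in 4 depleted (left, red) and 4 control (right, blue) mice, with mouse numbers. Microglia markers lie at 16.5 to 24.4 CPM in depleted mice, while striatum, hypothalamus and choroid plexus markers vary widely within each group.

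Per kilobase of exon, the 10 genes spanned a wide range of levels. Ednrb stood highest, at 10.4 ± 1.36 CPM per kb in depleted mice and 9.87 ± 2.27 CPM per kb in control mice. Nos1 followed at 6.32 ± 1.81 and 7.88 ± 0.769 CPM per kb in depleted and control mice, and Ace at 4.62 ± 0.804 and 4.11 ± 0.392 CPM per kb in depleted and control mice. Over the 8 mice Nos1 overlapped with both Ednrb and Ace. Nos3 came next, at 2.59 ± 0.221 CPM per kb in depleted mice and 2.75 ± 0.581 CPM per kb in control mice. It did not overlap with Edn1 below it. It nearly touched Ace above it, with 3.49 CPM per kb in control mouse 2 against 3.50 for Ace in depleted mouse 1. Nos3 also shares exon bases with genes on the opposite strand, as given below. Edn1 (1.64 ± 0.149 CPM per kb in depleted, 1.46 ± 0.146 CPM per kb in control mice) and Edn3 (1.41 ± 0.246 CPM per kb in depleted, 1.36 ± 0.0578 CPM per kb in control mice) overlapped. The lowest 4 genes, all below Edn3 without overlap and each overlapping with its neighbours among the 4, were Ednra, Adm, Piezo1 and Agtr1a, with means over the 8 mice of 0.666, 0.622, 0.532 and 0.359 CPM per kb. The order is that of whole forebrain RNA, in which rare vessel cells contribute few transcripts, and it uses the union of all annotated exons of a gene.

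**Figure D3:**
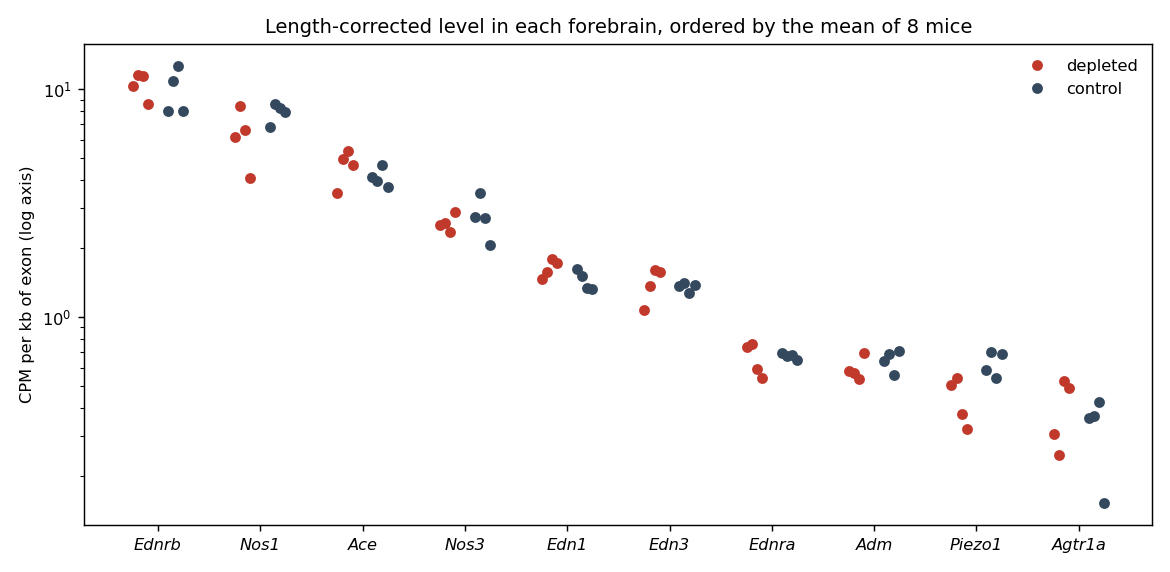
Level per kilobase of exon (CPM per kb, log axis) of each gene in 4 depleted (left points, red) and 4 control (right points, blue) mice, ordered by the mean of all 8. Ednrb is highest and Agtr1a lowest, and within each gene the groups overlap.

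Nos1, the neuronal synthase gene, had the larger difference of both synthase genes, but did not pass. It lies on chromosome 5, 117781032 to 117958840 (mm10). Its level was 68.6, 94.4, 73.6 and 45.4 CPM in depleted mice 1 to 4, against 75.8, 95.6, 91.8 and 88.5 CPM in control mice 1 to 4. Depleted mouse 4 was lowest of all and depleted mouse 2 lay among the controls, so that depleted mice spread over 70.5 ± 20.1 CPM and control mice over 87.9 ± 8.57 CPM. Its log2 fold change was -0.32 (SE 0.18, edgeR adjusted p = 0.571), with a 95% interval of 0.604-fold to 1.06-fold of the control level. Without depleted mouse 4 it was -0.16 (adjusted p = 0.743), and without depleted mouse 2 it was -0.48 (adjusted p = 0.162). Among the 4 mice with Hcrt reads it was -0.16 and among the 4 mice without them -0.52 (adjusted p = 0.991 and 0.474); whether these differ was not tested. Markers of the interneurons that make nitric oxide in cortex and striatum had 0 of 8 genes past the threshold. Their median log2 fold change was 0.077, with 5 of 8 positive. Chodl (-0.065), Sst (-0.15) and Hcrtr1 (-0.19) were negative, while Npy (0.20) and Tacr1 (0.62) were positive. This list also held Penk (log2 fold change 1.13, edgeR adjusted p = 0.457), which is in the striatum list as well.

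Nos3, the endothelial synthase gene, had 10.4, 10.6, 9.80 and 11.97 CPM in depleted mice 1 to 4, against 11.3, 14.4, 11.2 and 8.54 CPM in control mice 1 to 4. The depleted mice all lay within the range of the controls, and the highest and the lowest forebrain were both controls. The log2 fold change was -0.086 (SE 0.15, edgeR adjusted p = 0.881), with an interval of 0.752-fold to 1.18-fold. Vessel markers varied between mice as well. Depleted mouse 4 had the highest Nos3 of its group with smooth muscle markers at 82.9 CPM in sum, and control mice 2 and 4, the highest and lowest controls, had 93.5 and 64.0 CPM of these markers. The 10 smooth muscle markers summed to 63.9 to 82.9 CPM in depleted mice and 64.0 to 93.5 CPM in control mice (median log2 fold change -0.092), and the 17 endothelial markers to 414 to 532 CPM in depleted mice and 435 to 537 CPM in control mice (median -0.13). None of these genes passed, and their part in the Nos3 values was not tested. Nos3 shares 32.3% of its exon bases with Atg9b and Gm15587 on the opposite strand, and the strand setting of the counting is not given in the sources used here. Atg9b stood at 9.06 ± 2.15 CPM in depleted mice and 10.1 ± 2.51 CPM in control mice, and Gm15587 at 1.55 ± 0.230 CPM in depleted mice and 1.25 ± 0.112 CPM in control mice. The Nos1 level per kilobase was 2.48 ± 0.797 times that of Nos3 in depleted mice and 2.95 ± 0.647 times in control mice. Nos2, the inducible synthase gene, named here after its values were seen, had 20 to 33 counts per library in depleted mice and 19 to 34 in control mice.

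Edn1 and Edn3 encode endothelin precursors. Edn1, made mainly by endothelium, had 3.14, 3.38, 3.85 and 3.68 CPM in depleted mice 1 to 4, against 3.49, 3.25, 2.87 and 2.85 CPM in control mice 1 to 4. Depleted mice 3 and 4 lay above every control, and depleted mice 1 and 2 among them. Edn1 had a log2 fold change of 0.17 (SE 0.13, edgeR adjusted p = 0.673), an interval of 0.929-fold to 1.37-fold. It was positive in 20 of 20 alternative analyses (0.11 to 0.25), which reuse the same mice and are not independent. Edn3, whose peptide acts mainly through the receptor encoded by Ednrb, had 4.41, 5.63, 6.62 and 6.46 CPM in depleted mice 1 to 4, against 5.64, 5.81, 5.26 and 5.68 CPM in control mice 1 to 4. The controls were tightly grouped, while depleted mouse 1 lay below and depleted mice 3 and 4 above all of them. The log2 fold change was 0.047 (SE 0.13, edgeR adjusted p = 0.936; 0.839-fold to 1.27-fold), and its sign turned without depleted mouse 3 (-0.026) or 4 (-0.012). Depleted mouse 1, the lowest in Edn3 and in Ace, had the fewest choroid plexus markers, and depleted mouse 4 the most, at 94.5 and 787 CPM in sum. With the choroid plexus score (mean log2 CPM of its markers) as a covariate, Edn3 stood at 0.019 (SE 0.10) and Ace at 0.15 (SE 0.10), and neither passed.

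Per kilobase, the level of Edn1 was 1.18 ± 0.125 times that of Edn3 in depleted mice and 1.07 ± 0.0925 times in control mice. Edn2, the other endothelin gene, named after its values were seen, had 2 to 5 counts per library in depleted and 2 to 5 in control mice and was not tested.

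The endothelin receptor genes differed little between the groups. Ednra, the receptor gene of vascular smooth muscle and pericytes, had 4.03, 4.17, 3.25 and 2.96 CPM in depleted mice 1 to 4, against 3.82, 3.69, 3.73 and 3.53 CPM in control mice 1 to 4. Depleted mice 1 and 2 lay above and depleted mice 3 and 4 below all controls. Its log2 fold change was -0.037 (SE 0.13, edgeR adjusted p = 0.954), an interval of 0.791-fold to 1.20-fold. The 11 pericyte markers summed to 223 to 238 CPM in depleted mice and 233 to 277 CPM in control mice (median -0.15), and 1 of them fell, Cspg4, which oligodendrocyte precursors also express. Ednrb, the receptor gene abundant in astrocytes, had 43.9, 49.0, 48.7 and 36.6 CPM in depleted mice 1 to 4, against 34.1, 46.1, 54.0 and 34.3 CPM in control mice 1 to 4. The depleted mice lay within the range of the controls, and the log2 fold change was 0.082 (SE 0.16, edgeR adjusted p = 0.898; 0.831-fold to 1.35-fold).

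Ednrb was higher in the mice with Hcrt reads. The 4 mice with Hcrt reads averaged 49.5 CPM and the 4 without them 37.2 CPM, and the 2 sets did not overlap. Of all tested genes 2.31% were separated in that direction and 2.42% in the other. In all other members the 2 sets overlapped. Among mice with Hcrt reads the log2 fold change of depleted over control mice was -0.031, and among mice without them 0.24 (adjusted p = 0.995 and 0.688). With the presence of Hcrt reads as a block it was 0.10 with a smaller error (SE 0.088, adjusted p = 0.719). The 13 astrocyte markers had 0 genes past the threshold and a median of 0.022. They summed to 3754 to 4505 CPM in depleted mice and 3820 to 4362 CPM in control mice. Single markers went both ways. In edgeR 3 of 13 had an unadjusted p under 0.05, a level that 11.0% of all genes reached. These were Fgfr3 (-0.28), whose groups did not overlap, Gjb6 (-0.30) and Slc4a4 (0.31). Per kilobase, Ednrb stood at 16.1 ± 2.27 times Ednra in depleted mice and 14.6 ± 3.28 times in control mice.

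Ace, the gene of the converting enzyme, did not pass. The RefSeq table (GRCm38.p6) lists 2 start sites for Ace on chromosome 11, and counts per symbol do not separate them: the upstream one is that of the somatic enzyme, and the one inside the gene is known for the testis enzyme. The 250 bases before each are shown because both feed the same count, chr11:105967698-105967947 and chr11:105974939-105975188 on the + strand, with capitals for TATAAA or GGGCGG on either strand.
Ace somatic start: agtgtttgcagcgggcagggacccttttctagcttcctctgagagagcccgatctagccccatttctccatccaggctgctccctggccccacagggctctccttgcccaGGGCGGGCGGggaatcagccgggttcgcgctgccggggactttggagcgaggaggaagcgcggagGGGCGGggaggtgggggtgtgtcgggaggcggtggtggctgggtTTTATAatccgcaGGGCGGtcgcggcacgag
Ace internal start: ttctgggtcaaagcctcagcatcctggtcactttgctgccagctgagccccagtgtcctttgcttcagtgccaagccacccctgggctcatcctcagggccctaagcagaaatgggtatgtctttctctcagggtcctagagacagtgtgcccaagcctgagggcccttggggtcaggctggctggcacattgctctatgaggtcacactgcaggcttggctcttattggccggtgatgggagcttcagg
The somatic window held TATAAA, in its reverse complement, 31 bases before the start and GGGCGG at 4 places, 2 of them overlapping, and the internal window held neither. Over 32851 windows of the same length 12.4% held TATAAA and 32.7% GGGCGG on either strand, so neither motif is rare.

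The Ace count gave 18.5, 26.2, 28.4 and 24.6 CPM in depleted mice 1 to 4, against 21.7, 20.99, 24.6 and 19.6 CPM in control mice 1 to 4. Depleted mouse 1 was lowest and depleted mice 2 and 3 highest of all 8 forebrains. Ace had a log2 fold change of 0.17 (SE 0.13, edgeR adjusted p = 0.687), an interval of 0.923-fold to 1.37-fold. It was positive in 20 of 20 alternatives (0.067 to 0.28), which reuse the same mice. Without depleted mouse 1 it was 0.28 (SE 0.095, edgeR adjusted p = 0.496), and leaving out 1 mouse gave 0.089 to 0.28. Agtr1a, the gene of the main angiotensin II receptor, was the weakest per kilobase, with 47, 34, 101 and 66 counts in depleted mice 1 to 4, against 55, 50, 64 and 23 counts in control mice 1 to 4. On the CPM scale depleted mice 3 and 4 were highest, at 1.46 and 1.36, and control mouse 4 lowest, at 0.425. Its log2 fold change of 0.27 (SE 0.34, edgeR adjusted p = 0.832) had the widest interval of the 10 genes, 0.708-fold to 2.05-fold, so that it reached past 2-fold. Without control mouse 4 it was 0.032, and leaving out 1 mouse gave 0.032 to 0.44. The sign turned when the striatum score (mean log2 CPM of its markers) entered the fit, to -0.15.

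The rest of the angiotensin system was present at very unequal counts, and the following genes are named after their values were seen. Agt, the gene of the precursor angiotensinogen, which astrocytes make, had 18.8, 94.1, 76.1 and 48.7 CPM in depleted mice 1 to 4, against 89.5, 84.1, 116 and 35.3 CPM in control mice 1 to 4 (log2 fold change -0.45, SE 0.46, edgeR adjusted p = 0.783). Ren1, the gene of renin, which cuts angiotensinogen, had 1 to 9 counts per library in depleted and 3 to 10 in control mice. Agtr1b, the gene of a closely related second receptor, had 0 to 6 counts in depleted and 3 to 10 in control mice, and neither Ren1 nor Agtr1b was tested. Reads shared between Agtr1a and Agtr1b may have been split or dropped in counting, which the sources used here do not state.

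Adm, the adrenomedullin gene, had 52, 45, 60 and 55 counts in depleted mice 1 to 4, against 57, 54, 49 and 62 counts in control mice 1 to 4. These corresponded to 0.964 ± 0.116 CPM in depleted mice and 1.05 ± 0.109 CPM in control mice, and the groups overlapped. The log2 fold change was -0.13 (SE 0.17, edgeR adjusted p = 0.845; 0.702-fold to 1.20-fold). It was -0.21 without depleted mouse 4 and -0.075 without depleted mouse 3, the ends of the range when leaving out 1 mouse.

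Piezo1 showed the largest difference of the 10 genes, and it was lower in depleted mice without passing the adjusted test. It lies on chromosome 8, 122481698 to 122551329 (mm10, - strand). Its level was 5.02, 5.35, 3.72 and 3.21 CPM in depleted mice 1 to 4, against 5.81, 6.98, 5.35 and 6.84 CPM in control mice 1 to 4. Depleted mouse 2 and control mouse 3 touched at 5.35 CPM, and the other 3 depleted mice lay below all controls. The means were 4.33 ± 1.02 CPM in depleted and 6.25 ± 0.795 CPM in control mice. The log2 fold change was -0.53 (SE 0.18, unadjusted p = 0.0132, edgeR adjusted p = 0.317), an interval of 0.528-fold to 0.909-fold before any correction for the number of genes. It was negative in 20 of 20 alternatives, from -0.64 to -0.42, and the adjusted p ranged from 0.0997 to 1.000 over them. These alternatives reuse the same mice and are not independent. Among mice with Hcrt reads the log2 fold change was -0.44 and among those without them -0.61 (adjusted p = 0.991 and 0.542). In the fit that includes the striatum score it was -0.43 (SE 0.22, unadjusted p = 0.0871).

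Piezo1 is known in endothelium and in microglia and other macrophages. The 15 microglia markers had a median of -5.41, with all 15 lower and none at 0 in every library, while the 17 endothelial markers had a median of -0.13 with 0 past the threshold. Of 7 border macrophage markers 5 were tested and 3 fell (Mrc1, Stab1 and F13a1), with a median of -2.19 and sums of 3.17 to 5.92 CPM in depleted mice, against 12.6 to 17.7 CPM in control mice. Cd163 went the other way (log2 fold change 1.18, edgeR adjusted p = 0.380). Lyve1 stood at -0.58 (edgeR adjusted p = 0.716), and neither of them passed. The part of these cell types in the Piezo1 difference was not tested. Of the exon bases of Piezo1, 24.6% overlap Ctu2 on the opposite strand, which had 18.2 ± 2.05 CPM in depleted mice and 19.9 ± 2.86 CPM in control mice (log2 fold change -0.14, SE 0.12, edgeR adjusted p = 0.740). The 250 bases before the Piezo1 start are shown because this gene differed most, chr8:122551330-122551579 on the - strand (RefSeq, GRCm38.p6), with capitals for TATAAA or GGGCGG on either strand.
Piezo1 start: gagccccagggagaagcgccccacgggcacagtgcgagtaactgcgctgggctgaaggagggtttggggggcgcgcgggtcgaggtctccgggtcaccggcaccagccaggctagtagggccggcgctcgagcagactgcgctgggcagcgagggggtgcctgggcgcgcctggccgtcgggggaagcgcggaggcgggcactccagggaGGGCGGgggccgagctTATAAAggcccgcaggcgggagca
TATAAA lay 24 bases and GGGCGG 40 bases before the start, in a window of 74.0% G and C. These matches describe the letters of the window and say nothing of binding.

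**Figure D4:**
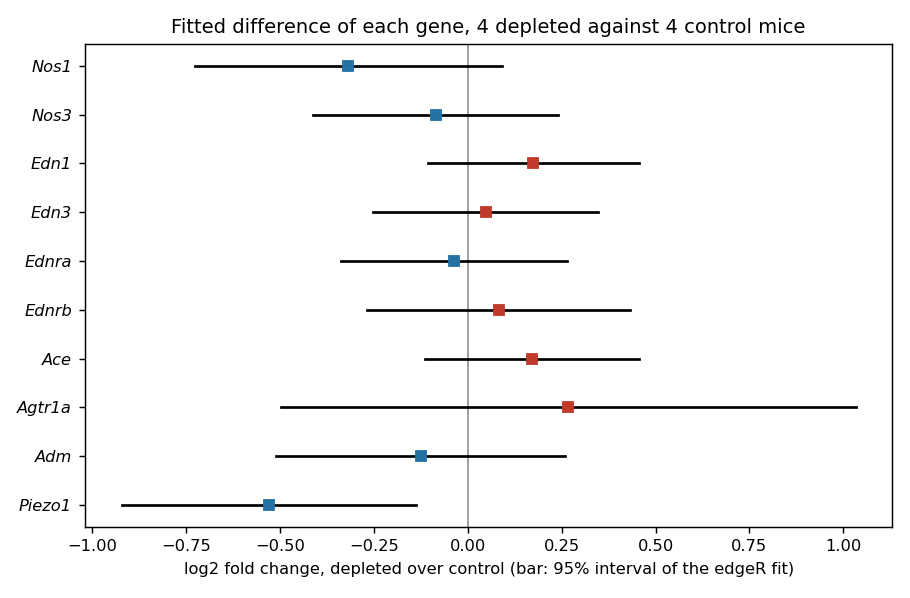
Fitted log2 fold change of depleted over control mice (squares) with 95% intervals (bars) for the 10 genes. The interval of Piezo1 lies below 0 before correction over all genes, that of Agtr1a is widest, and the other 9 intervals include 0.

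The other genes of the same pathways were compared as 5 lists with 74 genes, of which 68 had enough counts. In edgeR 0 of 68 passed over all genes, against 1.16% of all genes, 14 had an unadjusted p under 0.05 (8 lower, 6 higher), or 20.6%, against 11.0% of all genes, 1 passed in DESeq2 (Mme) and 0 in limma-voom. Over all genes DESeq2 called 346 lower and 118 higher, and limma-voom 225 lower and 9 higher. The median log2 fold change of the 68 was -0.069. Genes of each list with the smallest p are named below, since none passed.

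Among 25 partners of nitric oxide (cofactor synthesis, guanylate cyclase, kinases, phosphodiesterases, inhibitors) the median was -0.12. Prkg2, a cyclic GMP dependent kinase gene, had 13.3 ± 3.41 CPM in depleted mice and 18.7 ± 0.820 CPM in control mice (log2 fold change -0.49, SE 0.16, edgeR adjusted p = 0.304). Gucy1a3, the gene of the guanylate cyclase subunit now called Gucy1a1, had 130 ± 18.6 CPM in depleted mice and 96.1 ± 17.6 CPM in control mice (0.44, SE 0.14, edgeR adjusted p = 0.316). In the fit that includes the striatum score Gucy1a3 stood at 0.16 and Prkg2 at -0.28, each without passing.

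Among 6 tested endothelin partners the median was -0.012. Mme, the gene of neprilysin, which degrades endothelin and many other peptides, had 27.9, 12.9, 31.3 and 24.1 CPM in depleted mice 1 to 4, against 6.81, 15.3, 11.2 and 9.67 CPM in control mice 1 to 4 (log2 fold change 1.16, SE 0.29, edgeR adjusted p = 0.155). Depleted mouse 2 lay among the controls, as it did in its striatum markers (1000 CPM in sum, with 3118 to 3915 CPM in depleted mice 1, 3 and 4). Mme passed without depleted mouse 2 (1.38, adjusted p = 0.0146), in DESeq2 (adjusted p = 0.00266), without a filter (adjusted p = 0.0420) and among mice lacking Hcrt reads (1.67, adjusted p = 0.0174), while among mice with Hcrt reads it was 0.75 (adjusted p = 0.991); whether these differ was not tested. Adding the striatum score as a covariate gave 0.38 (SE 0.12, edgeR unadjusted p = 0.0133, adjusted p = 0.752). That score itself averaged 6.44 ± 0.910 in depleted mice and 4.98 ± 1.06 in control mice. Score and group therefore cannot be fully told apart in this fit or in any other that includes the score. Furin, the gene of a protease that cuts endothelin precursors, had 35.1 ± 2.73 CPM in depleted mice and 41.0 ± 1.33 CPM in control mice (-0.22, SE 0.066, edgeR adjusted p = 0.251).

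Among 14 tested renin and angiotensin partners the median was -0.0068. Mas1, the gene of a receptor for angiotensin fragments, had 16.2 ± 6.13 CPM in depleted mice and 24.9 ± 4.45 CPM in control mice (-0.63, SE 0.25, edgeR adjusted p = 0.399), and its log2 fold change was -0.22 once the striatum score was included.

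Among 10 tested adrenomedullin partners the median was -0.16. Calcrl, the gene of the receptor that adrenomedullin shares with CGRP, had 4.21 ± 0.717 CPM in depleted mice and 5.61 ± 1.02 CPM in control mice (-0.41, SE 0.17, edgeR adjusted p = 0.407). Its log2 fold change was larger, -0.51, in the fit that includes the striatum score, without passing. Calca, the gene of calcitonin and CGRP, stood at -1.88 (SE 0.84, edgeR adjusted p = 0.454), with 33 to 108 counts in depleted mice, against 784 counts in control mouse 1 and 55 to 114 in the other control mice. Without control mouse 1 its log2 fold change was -0.19.

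Among 13 mechanosensitive channels and flow response genes the median was 0.045. The potassium channel gene Kcnk2 had 92.7 ± 17.5 CPM in depleted mice and 67.2 ± 9.55 CPM in control mice (0.46, SE 0.15, edgeR adjusted p = 0.293), and Kcnj2 had 25.8 ± 5.84 CPM in depleted mice and 19.5 ± 2.48 CPM in control mice (0.41, SE 0.17, edgeR adjusted p = 0.409). Including the striatum score, Kcnk2 stood at 0.10 and Kcnj2 at 0.026.

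**Figure D5:**
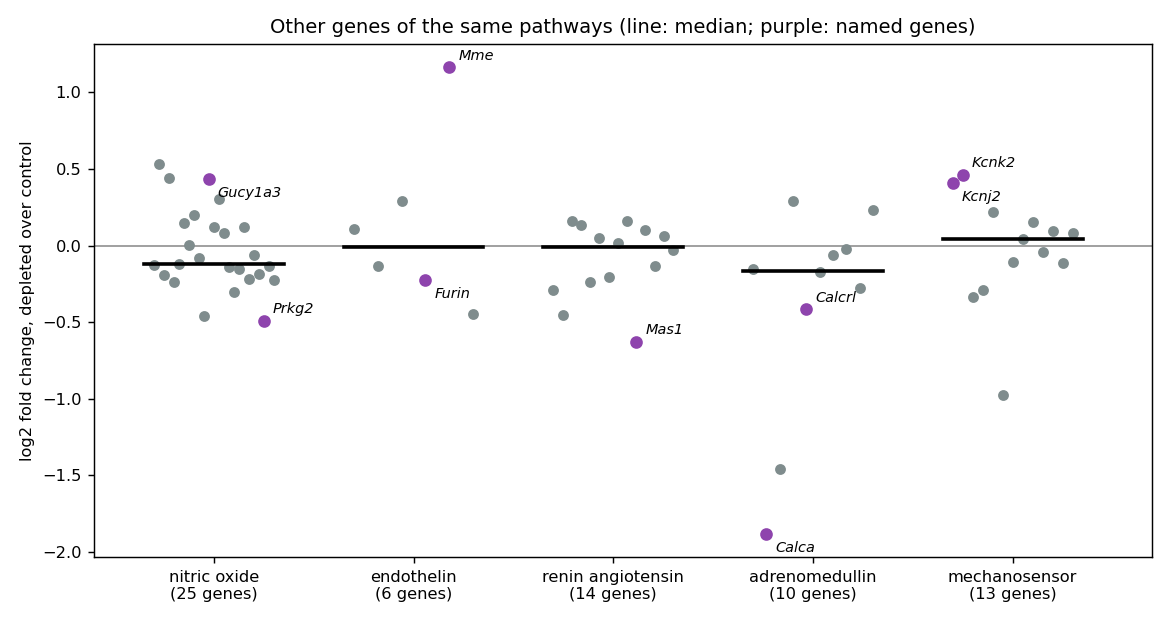
Log2 fold change of depleted over control mice for the 68 tested partner genes in 5 lists (points), with the median of each list (black line). The 2 genes with the smallest p in each list are named (purple), except 1 gene that is not reported here. Mme, at 1.16, stands highest and Calca, at -1.88 (-0.19 without control mouse 1), lowest.

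The 3 members that varied most over the 8 mice were Agtr1a, Piezo1 and Nos1, and the 3 genes most like each were taken from 13929 genes by Pearson's r of log2 CPM over the 8 mice, as a description of the largest values among many. Agtr1a ran most closely with Hnrnph3, Slc25a33 and Prrt4 (r = 0.97, 0.97 and 0.96). Piezo1 ran most closely with Efl1, Kcng1 and Tdp1 (r = 0.99, 0.98 and 0.97). Nos1 ran most closely with Trhr, Bcl9 and Galnt16 (r = 0.99, 0.99 and 0.98). Spearman's rho of these 9 pairs lay between 0.88 and 0.98, and without the 2 mice farthest from the member's median r lay between 0.89 and 0.96. None of these 9 genes passed the test between the groups (edgeR adjusted p from 0.356 to 0.894).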

How the data were processed

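The submitters' processing notes name the mm10 build and the tools FastQC, MultiQC, STAR, DESeq2 and DESeq. Tool versions, settings, annotation, strand setting and library kit: not given in the sources used here. The authors deposited raw counts, whole numbers for each gene symbol, in 8 columns, 1 per mouse. Coordinates, exon lengths and exon overlaps were taken from GENCODE M21, which annotates mm10. The filter was filterByExpr, the scaling TMM and the test edgeR's quasi-likelihood test (edgeR 4.0.16, R 4.3.3) of depleted against control mice, without covariates, over the 20140 genes kept. Benjamini-Hochberg adjustment covered all of them, with a threshold of 0.05. Each SE and 95% interval was computed from the F statistic. TMM-scaled CPM are given as levels, and log2 CPM were made with a prior count of 2. The steps were tested on simulated counts drawn from the fitted means and spreads. Those counts held no differences in tissue content between mice, and no result here rests on them.

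Every pair of replicate libraries differed by more than sampling noise (at least 11.2 times per gene). The labels describe separate mice, so errors are spreads between mice. The members, gene lists and tests were chosen with earlier results of these data known. Genes were named by rule: the 10 members, Csf1r, of each partner list the genes past the threshold or the 2 with the smallest p, and the 3 genes most like the 3 most variable members; 1 gene is not reported here. Other pathway genes, examples of marker lists, partners of overlapping strands and Ecel1 were named outside this rule, after their values were seen. Gucy1a1 and Gucy1b1 were matched through older symbols. Alternatives changed the scaling, the filter, the test (DESeq2 1.42.0, limma-voom 3.58.1), the replicate number as a block, tissue covariates and the mice included.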

Additional observations from a re-analysis of the deposited data

How the results depend on the processing

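None of the 10 genes passed in any of 20 alternative analyses. Of these, the fits with the choroid plexus score and within the mice with or without Hcrt reads were added after seeing the data. Nos1, Edn1, Ace, Adm and Piezo1 kept their sign in all 20, which reuse the same mice. Other signs turned, and in each case the cause was not tested. Nos3 stood at 0.049 without control mouse 2 (-0.20 to 0.049 when leaving out 1 mouse) and at 0.18 among mice lacking Hcrt reads. Edn3 stood at -0.026 without depleted mouse 3 (-0.026 to 0.15), at -0.012 without depleted mouse 4 and at -0.053 among mice lacking Hcrt reads. Ednra stood at 0.011 and 0.042 without depleted mouse 3 or 4 (-0.11 to 0.042) and at 0.072 when the striatum score was included. Ednrb stood at -0.0064 and -0.0041 without control mouse 1 or 4 (-0.0064 to 0.23), at -0.054 with the striatum score and at -0.031 in the mice with Hcrt reads. Agtr1a stood at -0.15 with that score and at -0.016 in the mice with Hcrt reads. Calca stood at 0.35 with the striatum score and at 0.11 in the mice with Hcrt reads. With the striatum score the remaining members stood at -0.25 (Nos1), -0.20 (Nos3), 0.18 (Edn1), 0.017 (Edn3), 0.17 (Ace), -0.13 (Adm) and -0.43 (Piezo1).

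Over all genes 223 were lower and 11 higher. DESeq2 called 346 lower and 118 higher, no filter 25 higher, the stricter filter 6 higher, the striatum score 2 higher, and the mice with Hcrt reads 66 lower and 0 higher, while those without Hcrt reads gave 184 lower and 128 higher; the cause was not tested. Leaving out 1 mouse gave 178 to 441 lower and 2 to 243 higher, the highest counts of both without depleted mouse 2 and the lowest count of higher genes, 2, without depleted mouse 3. With the replicate number as a block 161 were lower and 4 higher, and it changed the call of no member or partner. The labels state no pairing of depleted and control mice that share a number. The correlation of their deviations from the group means lay between -0.22 and 0.37. Hcrt counts were high in mice 2 and 3 of both groups and low in mice 1 and 4 of both. Whether mice of the same number shared a handling step was not tested.

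Of the partner genes 0 passed, 1 without a filter, 1 in DESeq2 (Mme in both), 2 in the mice without Hcrt reads (Mme and Ecel1) and 0 to 5 when leaving out 1 mouse. The 5 came without depleted mouse 2: Mme, Kcnk2, Kcnj2, Prkg2 and Furin. In that setting 441 genes were lower and 243 higher over all genes, against 223 and 11 in the main fit. Over all genes, no filter gave 248 lower and 25 higher, and DESeq2 346 and 118. Mice without Hcrt reads gave 184 and 128. Agtr1a and Adm rest on the fewest reads of the 10 genes, with 23 to 101 and 45 to 62 counts per library.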
